A study of Mus musculus with 32 samples.

Results

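The DUX4 effect in fibro-adipogenic progenitors (FAPs) was set against the DUX4 effect in endothelial cells of mouse hind limb muscle. The comparison used the 14 sorted-cell libraries among the 32 RNA-seq libraries of the series. Its measure is an interaction on the log2 scale, (PDGDUX minus PDGWT) minus (CD31DUX minus CD31WT), so that a positive value means a larger rise or a smaller fall in FAPs. Of the genes measured, 17008 passed the low-count filter and were tested. PDGDUX (4 libraries) are PDGFRα+ FAPs of mice with an inducible DUX4 gene, and PDGWT (3 libraries) are the same cells of wild-type (WT) mice. CD31DUX (4 libraries) are CD31+ endothelial cells of the DUX4 mice, and CD31WT (3 libraries) are those of WT mice. Doxycycline chow was given to the mice of every group, WT included, so the drug is shared by both sides of each comparison. Each library was made from 75000 sorted cells. The promoter that drives DUX4, the cells in which it is active, the length of treatment of the sorted-cell mice and their age are not stated in the labels or files used. Nothing there says that each library came from a separate animal, and p-values therefore measure the spread between libraries.

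DUX4 is a transcription factor of the early embryo whose misexpression in skeletal muscle underlies facioscapulohumeral dystrophy (FSHD). FAPs are the stromal cells of muscle: they produce collagen and other extracellular matrix, support muscle stem cells after injury, and can become fibroblasts or adipocytes. Endothelial cells line the vessels, carry lipid and oxygen supply to the fibres and, in lymphatic vessels, drain the tissue. Both cell types receive signals from damaged fibres and from immune cells.

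Total counts per library were 10998837 to 13725746 in PDGDUX, 16551480 to 18938910 in PDGWT, 15716041 to 20666816 in CD31DUX and 15151722 to 17234329 in CD31WT. With 3 counts taken as the limit that a count of 0 allows, the floor was 0.145 to 0.273 CPM per library (CPM, counts scaled to library size), covering counting error only. At equal depth, 17439 to 18102 genes had a count in PDGDUX and 19150 to 19693 in PDGWT. CD31DUX 5 had 18044 such genes, fewer than the 20139 to 20487 of the other CD31DUX libraries and the 19243 to 19903 of CD31WT. The sort markers matched the labels in all 14 libraries: Pdgfra averaged 1134 ± 219 CPM in PDGDUX, 921 ± 77.6 in PDGWT, 151 ± 33.8 in CD31DUX and 45.96 ± 20.3 in CD31WT (SD, n = 4, 3, 4 and 3). Pecam1, which encodes CD31, averaged 21.3 ± 2.63, 44.8 ± 16.5, 925 ± 92.8 and 1243 ± 140.4 CPM in the same order of groups. FAP genes were nevertheless measurable in the endothelial libraries, and more so in CD31DUX. The summed level of 20 FAP marker genes was 159331 to 177252 CPM in PDGDUX and 123700 to 164289 CPM in PDGWT, beside 31903 to 37320.1 CPM in CD31DUX and 10459 to 14447 CPM in CD31WT. Markers of other cells moved as well: a list of red cell and platelet genes summed to 534 to 3430.3 CPM in PDGDUX and 1934 to 13002 CPM in PDGWT, and to 1901 to 9867 CPM in CD31DUX and 17223 to 30252 CPM in CD31WT. Muscle fibre genes summed to 94.6 to 162 CPM in PDGDUX and 35.2 to 130.4 CPM in PDGWT, and to 552 to 1495 CPM in CD31DUX and 174 to 412 CPM in CD31WT. Macrophage genes summed to 98.4 to 391 CPM in PDGDUX, 35.7 to 238 in PDGWT, 943 to 1723 in CD31DUX and 216 to 1117 in CD31WT. Genes of class II antigen presentation summed to 130 to 502, 31.9 to 299, 1446 to 2515 and 132 to 823 CPM in the same order of groups. In such sorted pools, more cells of a type and more RNA per cell cannot be told apart. The human DUX4 transcript itself was not analysed here.

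The DUX4 effect differed between the cell types for 383 genes (2.25% of those tested) at an adjusted p under 0.05, the threshold used throughout. The difference was positive for 94 genes (0.553%) and negative for 289 (1.7%). Single libraries moved this split: leaving out 1 gave 37 (without PDGWT 10) to 171 (without CD31WT 2) positive and 199 (without PDGWT 11) to 376 (without CD31WT 1) negative interactions. The positive count also moved by over 1.5 times without PDGDUX 14 (50), PDGDUX 15 (57), PDGWT 11 (51), CD31DUX 6 (61), CD31DUX 7 (50) or CD31WT 3 (55). In FAPs alone, 209 genes rose (1.23%) and 301 fell (1.77%); in endothelial cells 633 rose (3.72%) and 230 fell (1.35%). Only 108 genes were called in both cell types, which is 21.2% of the FAP calls and 12.5% of the endothelial calls. Among these, 95 moved in the same direction and 13 (0.0764% of genes tested) in opposite directions. Across the 17008 genes the effects in the 2 cell types had a Pearson r of 0.199, and across the 9893 genes with at least 5 CPM in both cell types r was 0.331. These are descriptions across genes, which are not independent replicates. The median interaction over all genes was -0.12.

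Genes were sorted by their calls. A gene was one-sided when its interaction was called and only 1 cell type showed a called effect. There were 88 FAP-sided genes (0.517%), 36 of which rose and 52 of which fell, and 229 endothelial-sided genes (1.35%), 194 of which rose and 35 of which fell. Leaving out 1 library gave 18 (without PDGWT 10) to 48 (without PDGDUX 12) FAP-sided rises and 32 (without CD31DUX 6) to 75 (without PDGDUX 12) FAP-sided falls. The rises also dropped to 20 without PDGDUX 14, 22 without PDGDUX 15, 21 without PDGWT 11, 23 without CD31DUX 6 and 22 without CD31DUX 7. Endothelial-sided rises ran between 132 (without PDGWT 11) and 273 (without CD31WT 2). A further 10 genes (0.0588%) moved in the same direction in both cell types but by unequal amounts. A gene was counted as alike when both effects were called in 1 direction and the 95% interval of the interaction lay within 1 log2 unit of 0; there were 40 (0.235%), 23 rises and 17 falls. A gene whose effect was called in 1 cell type but whose interaction was not was left unsorted, since missing a threshold in the other cell type does not show a difference. This held for 314 genes called in FAPs and 526 called in endothelial cells.

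**Figure D1:**
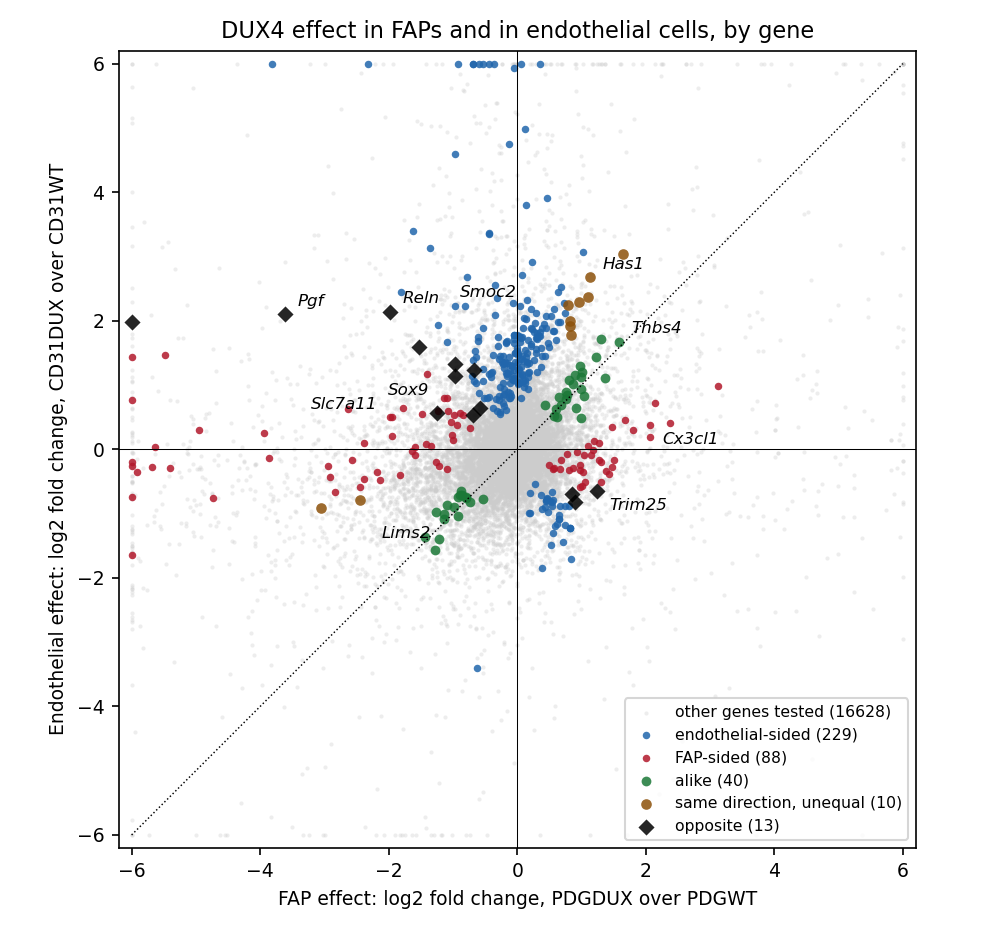
DUX4 minus WT log2 effect in FAPs (x axis) against that in endothelial cells (y axis) for the tested genes, coloured by class, with values beyond 6 log2 units drawn at the edge. Opposite genes such as Pgf and Reln lie in the upper left, Trim25 lies in the lower right, and alike genes such as Thbs4 and Lims2 lie along the diagonal.

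The 13 opposite genes were led by Pgf, which encodes placental growth factor, a ligand of the VEGF family that binds VEGFR1 (chromosome 12, 85166635 to 85177790 on GRCm38, ENSMUSG00000004791). Pgf stood at 10.1, 8.55, 9.399 and 4.88 CPM in PDGDUX, against 76.5, 129 and 95.7 CPM in PDGWT. In endothelial cells it stood at 92.6, 104, 128 and 144 CPM in CD31DUX, against 21.7, 20.1 and 39.9 CPM in CD31WT. The groups did not overlap in either cell type: every PDGDUX library was below every PDGWT library, and every CD31DUX library was above every CD31WT library. The log2 effect was -3.61 ± 0.29 (SE) in FAPs and 2.11 ± 0.29 in endothelial cells, an interaction of -5.72 ± 0.41 (adjusted p = 5.14e-06). Pgf kept this pattern in 22 of 22 recalculations with other tools, filters or libraries left out.

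Slc38a4 encodes an amino acid transporter of the plasma membrane and is imprinted in mice (chromosome 15, 96994820 to 97055956, ENSMUSG00000022464). It had no count in the 4 PDGDUX libraries, against 9.18, 7.17 and 10.6 CPM in PDGWT, and was at least 31.5-fold lower taking 3 counts per library as the floor. In endothelial cells it measured 42.02, 27.9, 54.2 and 25.7 CPM in CD31DUX and 15.9, 7.39 and 5.08 CPM in CD31WT, a log2 effect of 1.98 ± 0.40 (adjusted p = 0.0115). The lowest CD31DUX library was thus above the highest CD31WT library. Reln encodes reelin, a secreted glycoprotein known for guiding neurons and also made by lymphatic endothelium (chromosome 5, 21884454 to 22344702, ENSMUSG00000042453). Reln was at 2.67, 1.28, 3.32 and 1.88 CPM in PDGDUX and 10.3, 10.8 and 6.03 CPM in PDGWT. It was at 165, 191, 246 and 131 CPM in CD31DUX and 51.5, 36.3 and 36.9 CPM in CD31WT. Neither pair of groups overlapped, and the level in FAPs was low in both genotypes beside that in endothelial cells. The effects of -1.97 ± 0.30 and 2.14 ± 0.27 gave an interaction of -4.11 ± 0.41 (adjusted p = 0.000102). With limma voom the FAP fall of Reln was not called, and at an adjusted p under 0.01 the endothelial rise of Slc38a4 was not. Reln is itself 1 of the lymphatic markers described below, and the part of lymphatic cells in its endothelial rise was not tested.

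Sox9, a transcription factor of cartilage and of several progenitor cells (chromosome 11, 112782224 to 112787760, ENSMUSG00000000567), measured 63.4, 85.8, 98.8 and 72.1 CPM in PDGDUX, against 127, 183 and 162 CPM in PDGWT. It measured 41.97, 41.3, 39.9 and 42.4 CPM in CD31DUX, against 20.5, 17.9 and 18.2 CPM in CD31WT. The endothelial groups were tight and separate, and the FAP groups did not overlap either. The interaction was -2.11 ± 0.23 (adjusted p = 0.000268), and the pattern was kept in 22 of 22 recalculations. Nupr1, a nuclear protein induced by cell stress, followed it: 117, 109.6, 115 and 154 CPM in PDGDUX and 182, 207 and 207 CPM in PDGWT, with 94.05, 93.2, 125 and 104 CPM in CD31DUX and 48.4, 43.4 and 40.7 CPM in CD31WT. The interaction was -1.92 ± 0.21 (adjusted p = 0.000268), but the FAP fall of -0.68 ± 0.15 was lost on leaving out any 1 of PDGDUX 14 and PDGWT 10 and 11. In Sox9 and Nupr1 the DUX4 libraries of the 2 cell types were closer to each other than the WT libraries were.

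The other opposite genes that fell in FAPs and rose in endothelial cells kept the class less evenly across recalculations. Arl4a, a small GTPase, had an interaction of -1.23 ± 0.17 and kept its class in 19 of 22 recalculations, losing the endothelial rise without CD31DUX 7 and CD31WT 3. Trf, which encodes the iron carrier transferrin, had an interaction of -2.30 ± 0.34 and kept its class in 14 of 22, not without any 1 of PDGDUX 13, 14 and 15, PDGWT 10 and 11 and CD31DUX 6 and 7. Cp, which encodes the copper-bearing ferroxidase ceruloplasmin, had an interaction of -1.82 ± 0.22 and kept its class in 10 of 22, not without any 1 of PDGDUX 12 and 14, PDGWT 9, 10 and 11, CD31DUX 5, 6 and 7 and CD31WT 2 and 3. All 3 interactions were called (adjusted p = 0.00144, 0.00177 and 0.000398). Tc2n and Ntrk2, the receptor TrkB, kept the opposite class in 4 of 22 and 3 of 22 recalculations, so their opposite direction rests on values near the threshold. Tc2n lost it without any 1 of PDGDUX 12, 13, 14 and 15, PDGWT 10 and 11, CD31DUX 5, 6, 7 and 8 and CD31WT 1, 2 and 3, and Ntrk2 without any 1 of the 14 libraries.

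The reverse pattern, a rise in FAPs and a fall in endothelial cells, was shown by 3 genes. Trim25, a ubiquitin ligase that activates the viral RNA sensor RIG-I and is itself induced by interferon (chromosome 11, 88999376 to 89020293, ENSMUSG00000000275), measured 92.7, 97.4, 108 and 97.7 CPM in PDGDUX, against 47.5, 40.5 and 38.1 CPM in PDGWT. It measured 255, 244, 196 and 185 CPM in CD31DUX, against 279, 327 and 431 CPM in CD31WT. In FAPs the DUX4 libraries were all above the WT libraries, and in endothelial cells they were all below. The effects were 1.23 ± 0.16 and -0.65 ± 0.16 and the interaction 1.89 ± 0.23 (adjusted p = 0.000375); the endothelial fall was lost on leaving out any 1 of CD31DUX 7 and 8 and CD31WT 3. Dhx9, an RNA helicase, had 44.4, 40.4, 43.5 and 50.03 CPM in PDGDUX and 24.7, 24.7 and 24.8 in PDGWT, with 17.1, 22.2, 20.9 and 19.3 in CD31DUX and 36.6, 23.9 and 35.9 in CD31WT. Its groups did not overlap, but the class was kept in only 10 of 22 recalculations and was lost without any 1 of PDGWT 9, 10 and 11, CD31DUX 5, 7 and 8 and CD31WT 1 and 3. The third, Gm12918, is a predicted gene whose counts may share reads with a related locus; its interaction was 1.72 ± 0.29 and its class was lost without any 1 of PDGDUX 13, PDGWT 9 and 11, CD31DUX 5, 6 and 8 and CD31WT 1 and 3.

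**Figure D2:**
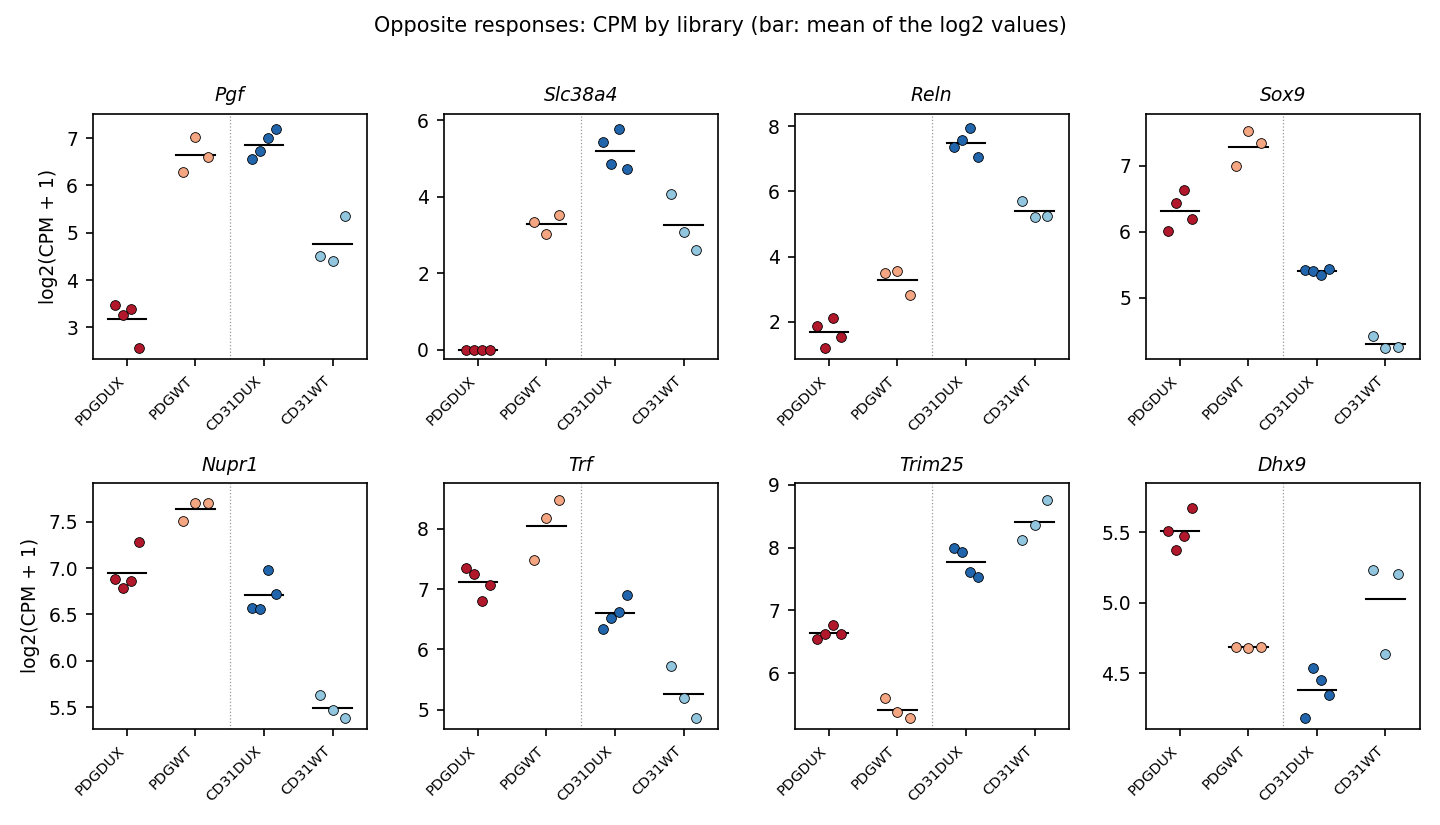
Level of 8 opposite genes in each library, as log2(CPM + 1) on the y axis, with the libraries of PDGDUX, PDGWT, CD31DUX and CD31WT from left to right and a bar at the mean of each group. Pgf, Slc38a4, Reln, Sox9, Nupr1 and Trf are lower in PDGDUX than in PDGWT and higher in CD31DUX than in CD31WT, while Trim25 and Dhx9 show the reverse.

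The 36 FAP-sided rises included genes of signalling and of defence against infection. Of the 36, 6 (16.7%) were higher in PDGWT than in CD31WT, against 49.2% of all genes tested. Both means enter the interaction by which these genes were selected, so this share is not independent of the selection. Cx3cl1 encodes fractalkine, a chemokine that attracts monocytes and lymphocytes and that endothelium is known to make (chromosome 8, 94772009 to 94782427, ENSMUSG00000031778). It measured 128, 92.3, 158 and 138 CPM in PDGDUX, against 36.3, 25.8 and 30.5 CPM in PDGWT. In endothelial cells it measured 90.1, 86.2, 82.6 and 113 CPM in CD31DUX, against 78.03, 81.1 and 55.6 CPM in CD31WT. Every PDGDUX library thus exceeded every CD31WT library, whereas PDGWT lay below both endothelial groups. The effect was 2.06 ± 0.21 in FAPs and 0.38 ± 0.19 in endothelial cells, with an interaction of 1.69 ± 0.27 (adjusted p = 0.00322). Ch25h, the interferon-induced enzyme that makes 25-hydroxycholesterol, moved by a similar amount: it measured 72.4, 65.7, 77.4 and 106 CPM in PDGDUX and 16.4, 15.8 and 25.5 in PDGWT, with 90.6, 67.03, 84.7 and 117 in CD31DUX and 90.3, 70.6 and 75.1 in CD31WT. Its FAP groups were far apart and its endothelial groups overlapped (interaction 1.87 ± 0.31, adjusted p = 0.00381). Gch1, which starts the synthesis of the nitric oxide synthase cofactor tetrahydrobiopterin, had 127, 159, 143 and 224 CPM in PDGDUX and 81.8, 61.4 and 55.5 in PDGWT, with 187, 184, 168 and 191 in CD31DUX and 198, 230.3 and 201 in CD31WT. Dusp6, a phosphatase that switches off ERK, had FAP and endothelial effects of 1.79 ± 0.20 and 0.31 ± 0.19 and an interaction of 1.49 ± 0.28 (adjusted p = 0.00809). Gch1 and Dusp6 were chosen after their values were seen. These 4 genes kept the FAP-sided class in every recalculation in which they were tested.

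The chemokine Cxcl9, which interferon gamma induces and which attracts T cells, measured 35.04, 87.03, 62.4 and 116 CPM in PDGDUX, against 8.96, 7.29 and 9.55 CPM in PDGWT. It measured 51.5, 68.3, 53.04 and 84.5 CPM in CD31DUX, against 28.01, 29.6 and 39.5 CPM in CD31WT. Its endothelial groups did not overlap either, but the effect of 0.99 ± 0.31 there missed the threshold (adjusted p = 0.0787). The interaction was 2.13 ± 0.44 (adjusted p = 0.0164) and was not called without PDGWT 10, while without PDGDUX 12 or PDGDUX 15 the endothelial rise was called as well. Plscr2, a phospholipid scramblase, rose by 2.38 ± 0.32 in FAPs and not detectably in endothelial cells (0.40 ± 0.29). Its interaction of 1.98 ± 0.42 was lost without PDGWT 10 and 11 in turn.

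Listed interferon targets were called more often in FAPs, but edgeR called the difference between the cell types for none of them. Of all genes tested, 1.23% rose in FAPs and 3.72% rose in endothelial cells. Of 27 listed genes, 10 rose in FAPs and 0 fell, while 1 rose in endothelial cells and 0 fell. Their median effect was 1.33 in FAPs and 0.28 in endothelial cells, beside -0.07 and -0.00456 over all genes tested. The interaction was called for 0 of the 27 by edgeR, with 10 at an unadjusted p under 0.05, 9 of them positive. DESeq2 called 4 positive and 1 negative, and limma voom 0 positive and 1 negative. Iigp1, an interferon-induced GTPase against intracellular pathogens, measured 824, 1101, 1094 and 1255 CPM in PDGDUX and 228, 78.9 and 336 in PDGWT, with 2175, 1599, 1389 and 1599 in CD31DUX and 1301, 1042 and 1229.6 in CD31WT. Its interaction of 1.81 ± 0.47 missed the threshold (adjusted p = 0.0668). Ifit1, which binds viral RNA, measured 329, 548, 510.3 and 954 CPM in PDGDUX and 146, 36.97 and 70.8 in PDGWT, with 617, 723, 503 and 693 in CD31DUX and 470.3, 174 and 345 in CD31WT. PDGDUX lay above PDGWT throughout for both genes, and the endothelial WT libraries already stood above the FAP WT libraries. The number of the 27 called as rises in FAPs ranged from 2 to 16 when 1 library was left out. The interferon sums were 2429 to 4908 CPM in PDGDUX and 729.7 to 1635 CPM in PDGWT, with 4534 to 5485 CPM in CD31DUX and 3090.5 to 4684.5 CPM in CD31WT. The exception in the other direction was Ifit2, at 27.2, 18.5, 25.9 and 33.8 CPM in PDGDUX and 30.8, 26.5 and 29.2 in PDGWT, with 132, 153, 112 and 128 in CD31DUX and 84.6, 35.98 and 68.6 in CD31WT. Ifit2 was the 1 listed gene called as a rise in endothelial cells (1.06 ± 0.24, adjusted p = 0.0173), and its FAP groups overlapped.

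Promoters of the FAP-sided rises were searched for GAAANNGAA, the core bound by interferon regulatory factors, on both strands, because several of these genes are interferon targets. The window ran from 250 bases before to 50 bases after the start site in RefSeq (GRCm38.p6), which listed a promoter for 27 of the 36 rises. The motif was found in 6 of the 27 (22.2%), namely Irgm2, Socs1, Cxcl9, Slfn5, Akr1c14 and Rab20, against 1086 of 11965 tested genes with an entry (9.08%) and 2812 of 32851 promoters in all (8.56%). It was found in 10 of 40 FAP-sided falls (25%), 21 of 141 endothelial-sided rises (14.9%), 3 of 17 endothelial-sided falls (17.6%), 3 of 15 alike rises (20%), 0 of 12 alike falls and 2 of 10 opposite genes (20%). The share among FAP-sided rises was thus close to that among FAP-sided falls. A letter match is a description and not a site in use. The promoters of Irgm2, Socs1 and Cxcl9 are shown because these 3 genes are known interferon targets, with the motif in capitals; in Socs1 it occurs as an overlapping pair. They are written 5′ to 3′ on the strand of the gene.
Irgm2, chr11:58214727-58215026 (+): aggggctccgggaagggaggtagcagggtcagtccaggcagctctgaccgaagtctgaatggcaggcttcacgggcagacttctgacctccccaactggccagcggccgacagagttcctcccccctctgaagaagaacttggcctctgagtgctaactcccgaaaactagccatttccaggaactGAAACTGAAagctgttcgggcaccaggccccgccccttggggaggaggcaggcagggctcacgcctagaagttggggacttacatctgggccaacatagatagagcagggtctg
Socs1, chr16:10785487-10785786 (-): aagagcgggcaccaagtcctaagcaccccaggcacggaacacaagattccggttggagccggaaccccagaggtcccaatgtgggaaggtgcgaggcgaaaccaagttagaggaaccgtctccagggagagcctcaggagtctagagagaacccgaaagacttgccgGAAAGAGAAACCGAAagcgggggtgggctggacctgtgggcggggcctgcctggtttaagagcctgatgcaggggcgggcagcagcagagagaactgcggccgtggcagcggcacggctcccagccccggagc
Cxcl9, chr5:92328030-92328329 (-): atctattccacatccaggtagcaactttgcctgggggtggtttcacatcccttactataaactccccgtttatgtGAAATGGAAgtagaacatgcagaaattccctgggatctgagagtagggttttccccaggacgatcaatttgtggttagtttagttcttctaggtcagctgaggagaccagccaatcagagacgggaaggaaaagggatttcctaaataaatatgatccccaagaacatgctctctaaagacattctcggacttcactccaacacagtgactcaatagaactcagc
Irgm2, an immunity-related GTPase, measured 138, 118, 163 and 151 CPM in PDGDUX and 37.1, 33.9 and 63.2 in PDGWT, with 188, 129, 127 and 131 in CD31DUX and 123, 90.2 and 100.2 in CD31WT. Socs1, the inhibitor of JAK-STAT signalling that interferon induces, measured 141, 135, 128 and 169 CPM in PDGDUX and 80.8, 77.3 and 92.96 in PDGWT, with 71.6, 65.3, 65.6 and 65.1 in CD31DUX and 59.04, 68.2 and 83.7 in CD31WT. Both were well separated in FAPs, and Socs1 overlapped between the endothelial groups. Their interactions, 1.22 ± 0.30 and 0.85 ± 0.20, were near the threshold (adjusted p = 0.0446 and 0.0347), and the class was kept in 11 of 22 and 13 of 22 recalculations. It was lost without any 1 of PDGDUX 12, 14 and 15, PDGWT 9 and 10, CD31DUX 6, 7 and 8 and CD31WT 1 and 3 for Irgm2, and without any 1 of PDGDUX 15, PDGWT 9 and 10, CD31DUX 6, 7 and 8 and CD31WT 3 for Socs1.

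FAP-sided falls numbered 52. Bmp2, a ligand of the bone morphogenetic protein family (chromosome 2, 133552159 to 133562885, ENSMUSG00000027358), measured 131, 145, 120.4 and 105 CPM in PDGDUX, against 232, 358 and 361 CPM in PDGWT. It measured 58.3, 51.4, 46.7 and 58.6 CPM in CD31DUX, against 52.03, 54.9 and 49.4 CPM in CD31WT. The FAP groups were separate and the endothelial groups overlapped, with effects of -1.34 ± 0.16 and 0.04 ± 0.16 (interaction adjusted p = 0.00381). Slc7a11, the cystine importer that feeds glutathione synthesis, measured 3.97, 7.48, 5.22 and 3.51 CPM in PDGDUX and 23.5, 16.6 and 19.5 in PDGWT, with 12.3, 20.97, 20.6 and 12.5 in CD31DUX and 12.97, 9.85 and 12.4 in CD31WT. Nqo1, a quinone reductase, measured 2.77, 1.604, 2.18 and 1.71 CPM in PDGDUX and 13.3, 9.83 and 15.7 in PDGWT, with 37.7, 23.4, 35.2 and 27.3 in CD31DUX and 19.4, 25.9 and 14.6 in CD31WT. Both fell in FAPs (interactions -2.48 ± 0.42 and -3.27 ± 0.40, adjusted p = 0.00487 and 0.000375). Nqo1 was chosen after its values were seen. Bmp2, Slc7a11 and Nqo1 kept the FAP-sided class in every recalculation in which they were tested.

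Several FAP-sided falls are genes that endothelium or mural cells express more highly than FAPs. Des, the intermediate filament desmin of muscle and pericytes, measured 14.02, 9.84, 8.64 and 10.4 CPM in PDGDUX and 39.6, 34.00 and 26.9 in PDGWT, with 119.6, 130.3, 102 and 139 in CD31DUX and 140.3, 109 and 125 in CD31WT (interaction -1.62 ± 0.26, adjusted p = 0.00273). St8sia6, a sialyltransferase, was listed at 0, 0.214, 0 and 0.257 CPM in PDGDUX and 9.29, 6.06 and 3.99 in PDGWT, with 53.1, 36.2, 42.99 and 35.4 in CD31DUX and 49.8, 57.6 and 45.6 in CD31WT. Nos3, the endothelial nitric oxide synthase, measured 1.57, 2.35, 3.89 and 1.29 CPM in PDGDUX and 15.6, 12.2 and 9.01 in PDGWT, with 329.8, 319, 239 and 246 in CD31DUX and 365, 560.0 and 352 in CD31WT. Levels in FAPs were far below those in endothelial cells for all 3 genes. The interaction of Nos3, a gene chosen after its values were seen, was -1.85 ± 0.40 (adjusted p = 0.0226) and was not called without any 1 of PDGWT 9 and 10, CD31DUX 5 and 6 and CD31WT 1 and 3. Every CD31DUX library was also below every CD31WT library for Nos3, a fall that edgeR did not call. With limma voom the fall of Nos3 was called in both cell types and its interaction was not. Of 18 listed endothelial markers, 7 fell in FAPs and 0 rose, against falls of 1.77% of all genes tested. Their median effect was -1.12, beside -0.07 over all genes tested. Their summed level was 326 to 449.8 CPM in PDGDUX and 463 to 676 CPM in PDGWT, with 6988 to 8423 CPM in CD31DUX and 9440.3 to 10541 CPM in CD31WT. The part of endothelial RNA in these FAP falls was not tested. Of the 52 falls, 20 were higher in PDGWT than in CD31WT, against 49.2% of all genes tested. This share too rests on means that enter the selection of the genes. Among the 20, Gpc3, a cell-surface proteoglycan that FAPs express strongly, measured 375, 414, 340.2 and 291 CPM in PDGDUX and 696, 977 and 874 in PDGWT, with 76.1, 89.6, 67.9 and 58.96 in CD31DUX and 84.98, 86.3 and 81.3 in CD31WT. It was chosen after its values were seen, and its interaction of -1.05 ± 0.23 (adjusted p = 0.0203) was lost without any 1 of PDGWT 10 and 11 and CD31WT 3.

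**Figure D3:**
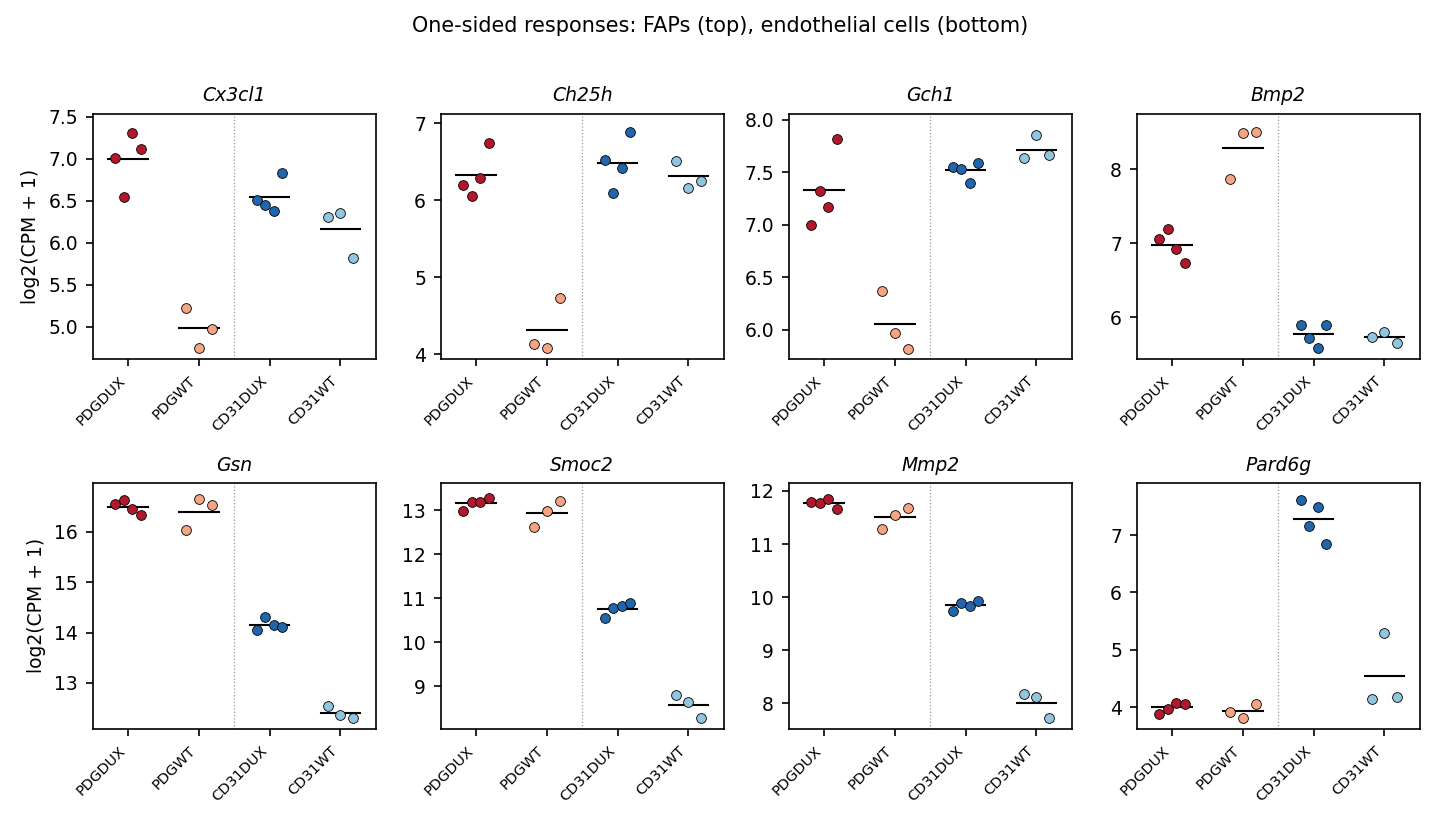
Level of 4 FAP-sided genes (Cx3cl1, Ch25h, Gch1, Bmp2) and 4 endothelial-sided genes (Gsn, Smoc2, Mmp2, Pard6g) in each library, as log2(CPM + 1), with PDGDUX, PDGWT, CD31DUX and CD31WT from left to right and a bar at each group's mean. Gsn, Smoc2 and Mmp2 are higher in both FAP groups than in either endothelial group, whereas Pard6g is highest in CD31DUX.

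Endothelial-sided rises were the largest class, with 194 genes, and most were genes that WT FAPs express more highly than WT endothelial cells. Gsn, which encodes the actin-severing protein gelsolin (chromosome 2, 35256380 to 35307892, ENSMUSG00000026879), measured 96429, 102177, 90188 and 82397 CPM in PDGDUX, against 67064, 103107 and 94543 CPM in PDGWT. In endothelial cells it was at 16969.5, 20187, 18291 and 17681 CPM in CD31DUX, against 5969, 5277 and 5071 CPM in CD31WT. The endothelial groups were well apart, the FAP groups overlapped, and even the highest endothelial library stood below the lowest FAP library. The effects were 0.07 ± 0.14 in FAPs and 1.75 ± 0.15 in endothelial cells (interaction -1.68 ± 0.20, adjusted p = 0.000390). Smoc2, a secreted calcium-binding matrix protein, measured 8159, 9369, 9408 and 9866 CPM in PDGDUX and 6293, 8124 and 9465 in PDGWT, with 1492, 1762, 1814 and 1913 in CD31DUX and 449.6, 397 and 312 in CD31WT. Mmp2, a gelatinase that cleaves matrix, measured 3568, 3488, 3671 and 3234 CPM in PDGDUX and 2493, 3006 and 3261 in PDGWT, with 852, 943, 909 and 974 in CD31DUX and 289, 277 and 211 in CD31WT. For each of these genes the FAP effect was small and its groups overlapped or nearly met. The same held for Dcn (decorin, endothelial effect 1.36 ± 0.15), Col5a1 (a chain of type V collagen, 1.58 ± 0.16), Fbln1 (fibulin 1, 1.24 ± 0.12), Serping1 (the inhibitor of complement C1, 1.32 ± 0.14), Timp2 (an inhibitor of matrix proteases, 1.19 ± 0.17) and the chemokine Cxcl14 (1.89 ± 0.19). All 9 kept the endothelial-sided class in every recalculation in which they were tested.

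The FAP marker sum was also higher in every CD31DUX library than in any CD31WT library. How far these rises followed it from library to library was not tested. Of the 194 endothelial-sided rises, 190 (97.9%) were higher in PDGWT than in CD31WT. This held for 597 of all 633 endothelial rises (94.3%), 4 of the 35 endothelial-sided falls (11.4%) and 49.2% of all genes tested. The CD31WT mean enters both the rises and this comparison. The shares are therefore not independent of how the genes were selected, and 49.2% is no even baseline. The increment of CD31DUX over CD31WT, as a percentage of the PDGDUX level, had a median of 13.8% over the 20 FAP markers. Its interquartile range was 11.3% to 15.2% and its full range -23.9% to 24.1%. Over the 177 endothelial-sided rises with at least 5 CPM in PDGDUX the median was 17.2%, with an interquartile range of 13.4% to 23.8%. The full range there was 7.04% to 888%. These 177 genes were selected for an endothelial rise, which the FAP markers were not. Of all genes tested, 1.23% rose in FAPs, 3.72% rose in endothelial cells and 1.7% had a negative called interaction. Of the 20 FAP markers, 1 rose and 1 fell in FAPs, while 12 rose in endothelial cells and 0 fell. Of 34 genes of fibrillar collagens and their partners, 5 rose in FAPs and 0 fell, and 23 rose in endothelial cells and 0 fell. The interaction was negative and called for 10 of the FAP markers and for 10 of the 34 matrix genes. Whether endothelial cells themselves made more of these transcripts, or the CD31DUX pools held more FAP RNA, cannot be told apart here. When the sorting into classes was repeated over the 7603 genes no higher in PDGDUX or PDGWT than in CD31WT, a choice made after this was seen, 38 interactions were called. Among them were 4 opposite genes, 24 FAP-sided genes and 7 endothelial-sided genes, 3 of them rises. The choice uses the CD31WT and FAP means that enter the effects, and so selects against rises. The median endothelial effect in this set was -0.28, against -0.00456 over all genes tested. These counts are therefore no test of the source of the endothelial rises.

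A small group of endothelial-sided rises exceeded the FAP level. In 13 of the 194 the mean in CD31DUX was above that of both FAP groups. This held for 83 of all 633 endothelial rises, a larger share. Of the 13, 3 chosen after their values were seen are given here. Pard6g, a scaffold of the PAR cell polarity complex (chromosome 18, 80046890 to 80119639, ENSMUSG00000056214), measured 13.8, 14.6, 15.95 and 15.7 CPM in PDGDUX, against 14.1, 13.1 and 15.6 CPM in PDGWT. In endothelial cells it measured 195, 142, 179 and 114 CPM in CD31DUX, against 16.8, 38.2 and 17.2 CPM in CD31WT. Every CD31DUX library was above all other libraries, and the FAP groups overlapped. The endothelial effect was 2.71 ± 0.27 and the interaction -2.63 ± 0.36 (adjusted p = 0.00112), and Pard6g kept its class in 23 of 23 recalculations, the 7603-gene one included. Ackr2, a decoy receptor for inflammatory chemokines known from lymphatic endothelium, measured 9.68, 5.56, 1.899 and 8.74 CPM in PDGDUX and 15.9, 21.3 and 12.7 in PDGWT, with 40.9, 66.5, 62.7 and 50.8 in CD31DUX and 6.07, 3.64 and 9.101 in CD31WT. Its FAP groups did not overlap, and DESeq2 and limma voom called the FAP fall, which made Ackr2 an opposite gene. Slc45a3, a transporter of the solute carrier family, measured 1.38, 0.962, 0.5696 and 0.5997 CPM in PDGDUX and 1.37, 4.204 and 3.72 in PDGWT, with 86.5, 61.8, 72.95 and 58.7 in CD31DUX and 18.5, 14.7 and 5.38 in CD31WT. It too became opposite with DESeq2 and without any 1 of PDGDUX 12, PDGWT 9 and CD31WT 3.

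Lymphatic markers, of which Reln is 1, moved in endothelial cells, and their levels stand beside the rise of Ackr2. Of 7 listed genes, Reln fell in FAPs and 0 rose, while 6, Reln included, rose in CD31DUX and 0 fell. Of all genes tested, 3.72% rose in endothelial cells. The listed gene not called was Prox1, for which DESeq2 and limma voom called an endothelial effect. The endothelial rise of Ccl21a, another of the 6, was lost in 14 of 23 recalculations. Mmrn1, a secreted adhesion protein of lymphatic and other endothelium, measured 1117, 881, 1101 and 826 CPM in CD31DUX, against 122, 161 and 82.3 CPM in CD31WT. Lyve1, the hyaluronan receptor of lymphatic endothelium, measured 575, 613, 875 and 563 CPM in CD31DUX and 101, 106 and 51.9 CPM in CD31WT. Both were several-fold higher in every CD31DUX library than in any CD31WT library, and both were at most 5.99 CPM in FAPs. Because of these low FAP levels the interactions were imprecise (-0.20 ± 1.48 and -2.26 ± 0.96, adjusted p = 0.976 and 0.319). The endothelial rise of Lyve1 was 2.93 ± 0.64 (adjusted p = 0.0217), and it was not called without any 1 of CD31DUX 7 and CD31WT 1 and 3. The summed level of the list was 110.5 to 266 CPM in PDGDUX and 88.5 to 135 CPM in PDGWT, beside 4359 to 7038 CPM in CD31DUX and 675 to 1014 CPM in CD31WT. A larger share of lymphatic cells and more lymphatic RNA per cell cannot be told apart.

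Endothelial-sided falls numbered 35 and included genes of the ribosome, whose near-identical copies make each single value uncertain. The count rests on single libraries: it was 2 without CD31WT 3 and 91 without CD31WT 2, it was within 1.5 times of 35 only without PDGDUX 12 (30) or PDGDUX 13 (27), and it ran between 11 and 23 without any other library. At an adjusted p under 0.01 it was 3. A positive interaction was called for 0.553% of all genes tested. Of 20 listed ribosomal protein genes, the interaction was positive and called for 4 (Rpl7, Rpl8, Rplp1 and Rps3), and 15 were positive at an unadjusted p under 0.05. Their median effect was 0.38 in FAPs and -0.54 in endothelial cells, a median interaction of 0.91 beside -0.12 over all genes. Summed over the list, the level was 4822 to 7060.2 CPM in PDGDUX and 4308 to 5027 CPM in PDGWT, with 2462 to 3658 CPM in CD31DUX and 3410 to 5622 CPM in CD31WT. Rpl8 measured 208, 215, 249.7 and 285 CPM in PDGDUX and 198, 161 and 186 in PDGWT, with 105, 138, 133 and 149.9 in CD31DUX and 231, 145 and 218 in CD31WT. CD31WT 2, the lowest of the CD31WT libraries for Rpl8 and for the sum, lay within the CD31DUX range in both. The endothelial effect of Rpl8, -0.59 ± 0.17, missed the threshold (adjusted p = 0.0575), so Rpl8 is not counted among the 35. The calls on this list were unstable: DESeq2 called 10 interactions, limma voom 0, and leaving out 1 library gave 0 to 12. The interaction of Rpl8 was not called, or was joined by a called endothelial fall, without any 1 of PDGDUX 13, 14 and 15, PDGWT 9, 10 and 11, CD31DUX 5, 6 and 7 and CD31WT 1, 2 and 3. Outside the ribosome, Max, the partner of the MYC transcription factors, fell by -1.44 ± 0.30 in endothelial cells and not detectably in FAPs (0.71 ± 0.31), with an interaction of 2.15 ± 0.43 (adjusted p = 0.0147). Without CD31WT 3 the endothelial fall of Max was no longer called.

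Ranked by the smaller of their 2 effects, the alike rises began with Thbs4, Aebp1 and Thbs1. Thbs4 and Thbs1 encode thrombospondins, secreted proteins that regulate cell adhesion and matrix assembly. Thbs4 (chromosome 13, 92751590 to 92794818, ENSMUSG00000021702) measured 2227, 2177, 2273 and 2623 CPM in PDGDUX, against 957, 637 and 737 CPM in PDGWT. In endothelial cells it measured 1165, 1331, 1109 and 1682 CPM in CD31DUX, against 484, 409 and 348 CPM in CD31WT. Neither pair overlapped. The effects of 1.58 ± 0.18 and 1.68 ± 0.18 differed by -0.10, with a 95% interval of -0.60 to 0.41. Aebp1, whose secreted form binds collagen, measured 1218, 1107, 1065 and 988 CPM in PDGDUX and 527, 433 and 365 in PDGWT, with 275, 328, 279 and 268 in CD31DUX and 121, 78.3 and 62.3 in CD31WT. Its interval of -0.97 to 0.15 came close to the limit, which it exceeded without any 1 of PDGDUX 12, 13 and 14, PDGWT 10 and 11, CD31DUX 5, 7 and 8 and CD31WT 1. Thbs1 measured 5133, 7624, 6542 and 6278 CPM in PDGDUX and 2185, 3775 and 2220.0 in PDGWT, with 1008, 1374, 1239 and 1421 in CD31DUX and 537, 449 and 409 in CD31WT, and the interval of its difference was -0.79 to 0.38. Gpm6b, a membrane proteolipid, measured 458, 409, 421 and 529 CPM in PDGDUX and 238, 212 and 239.6 in PDGWT, with 86.96, 92.96, 110.2 and 107 in CD31DUX and 50.9, 47.4 and 38.2 in CD31WT (interval -0.55 to 0.27). Thbs4, Thbs1 and Gpm6b were alike in every recalculation in which they were tested. Pdgfrb, the PDGF receptor of mural cells and fibroblasts, rose by 0.81 ± 0.16 and 1.07 ± 0.16 and was alike in 21 of 22, losing the FAP call without PDGWT 9. Bgn, which encodes the small proteoglycan biglycan, rose by 1.01 ± 0.21 and 1.20 ± 0.21 and lost the FAP call without PDGWT 11. Of the 23 alike rises, 22 were higher in PDGWT than in CD31WT, and the CD31WT mean again enters both the rise and this comparison. The increment of CD31DUX over CD31WT was a median 21.7% of the PDGDUX level over these 23, which were selected for an endothelial rise. It was 19.3% over the 566 endothelial rises with at least 5 CPM in PDGDUX. Over the FAP markers, which were not selected for a rise, it was 13.8%. The part of FAP RNA on the endothelial side of the alike rises was not tested. The alike rise that was not higher in PDGWT than in CD31WT was Pml, the scaffold of nuclear bodies and an interferon target. Pml averaged 50.5 ± 7.42 CPM in PDGDUX and 25.5 ± 0.439 in PDGWT, with 93.1 ± 8.48 in CD31DUX and 66.2 ± 1.18 in CD31WT. Pml was alike in only 7 of 23 recalculations, since its endothelial rise of 0.49 ± 0.13 (adjusted p = 0.0454) was lost without any 1 of PDGDUX 13 and 14, PDGWT 9, 10 and 11, CD31DUX 5, 6, 7 and 8 and CD31WT 1, 2 and 3. Its difference of 0.49 had an interval of 0.09 to 0.90, which lay above 0.

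Alike falls numbered 17, and by the same ranking began with Gpihbp1, Myl9, Acta2 and Lims2. Gpihbp1, which carries lipoprotein lipase to the capillary surface, measured 4.33, 4.705, 1.61 and 3.34 CPM in PDGDUX and 12.9, 8.902 and 6.36 in PDGWT, with 309, 326, 239 and 349 in CD31DUX and 637, 692 and 1026 in CD31WT. It was alike in only 10 of 23 recalculations, and not without any 1 of PDGDUX 12, 13 and 15, PDGWT 9, 10 and 11, CD31DUX 7 and 8 and CD31WT 1 and 3. Lims2, an adaptor of integrin adhesions also called PINCH2 (chromosome 18, 31922290 to 31958619, ENSMUSG00000024395), measured 31.1, 26.8, 23.2 and 22.1 CPM in PDGDUX, against 56.1, 68.4 and 46.04 CPM in PDGWT. It measured 189, 163, 116 and 165 CPM in CD31DUX, against 317, 294 and 394 CPM in CD31WT. Every DUX4 library was below every WT library of its cell type, and the effects were -1.14 ± 0.18 and -1.09 ± 0.18 (interval of the difference -0.60 to 0.49). Hprt, a purine salvage enzyme often used as a reference gene, measured 29.6, 20.3, 29.4 and 38.2 CPM in PDGDUX and 59.1, 58.1 and 57.9 in PDGWT, with 55.8, 46.4, 46.6 and 41.2 in CD31DUX and 85.9, 75.8 and 104 in CD31WT. Hprt thus stood lower in both DUX4 groups (adjusted p = 0.00755 in FAPs and 0.00740 in endothelial cells), and the endothelial fall was not called without CD31WT 3. Hspb1, a small heat shock protein that binds actin and other client proteins, measured 119.7, 142, 107 and 103 CPM in PDGDUX and 369, 277 and 205 in PDGWT, with 771, 966, 765 and 870.2 in CD31DUX and 1658, 1320.5 and 2011 in CD31WT. Myl9, a regulatory myosin light chain of smooth muscle, measured 31.6, 29.1, 20.8 and 31.4 CPM in PDGDUX and 88.1, 50.6 and 67.2 in PDGWT, with 55.9, 74.9, 74.4 and 101 in CD31DUX and 181, 256 and 241 in CD31WT. Without PDGWT 11 and CD31WT 3 in turn the interval of Hspb1 was wider than the limit, and for Myl9 this held without PDGDUX 14, PDGWT 9, CD31DUX 6 and 8 and CD31WT 1. Acta2, the smooth muscle actin, averaged 15.1 ± 2.01 CPM in PDGDUX and 35.1 ± 16.5 in PDGWT, with 122 ± 29.5 in CD31DUX and 324 ± 19.9 in CD31WT (SD, n = 4, 3, 4 and 3), and PDGWT 9 was the highest of its group. Its FAP fall was not called without PDGWT 9 or with limma voom, and its interval exceeded the limit without any 1 of PDGDUX 14, CD31DUX 8 and CD31WT 1. Myl9 and Acta2 mark mural cells. Falls were called for 1.77% of all genes tested in FAPs and 1.35% in endothelial cells. Of 12 listed mural genes, 3 fell and 1 rose in FAPs as in endothelial cells. Their summed level was 530.5 to 694 CPM in PDGDUX and 496 to 507 CPM in PDGWT, with 876 to 1256 CPM in CD31DUX and 1524 to 1853 CPM in CD31WT. The part of mural cells in these falls was not tested. Gpihbp1, Lims2 and Hspb1 stood higher in every endothelial library than in any FAP library. The endothelial marker sum given above was lower in every PDGDUX library than in any PDGWT library. The part of endothelial RNA in the FAP side of the alike falls was not tested either.

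**Figure D4:**
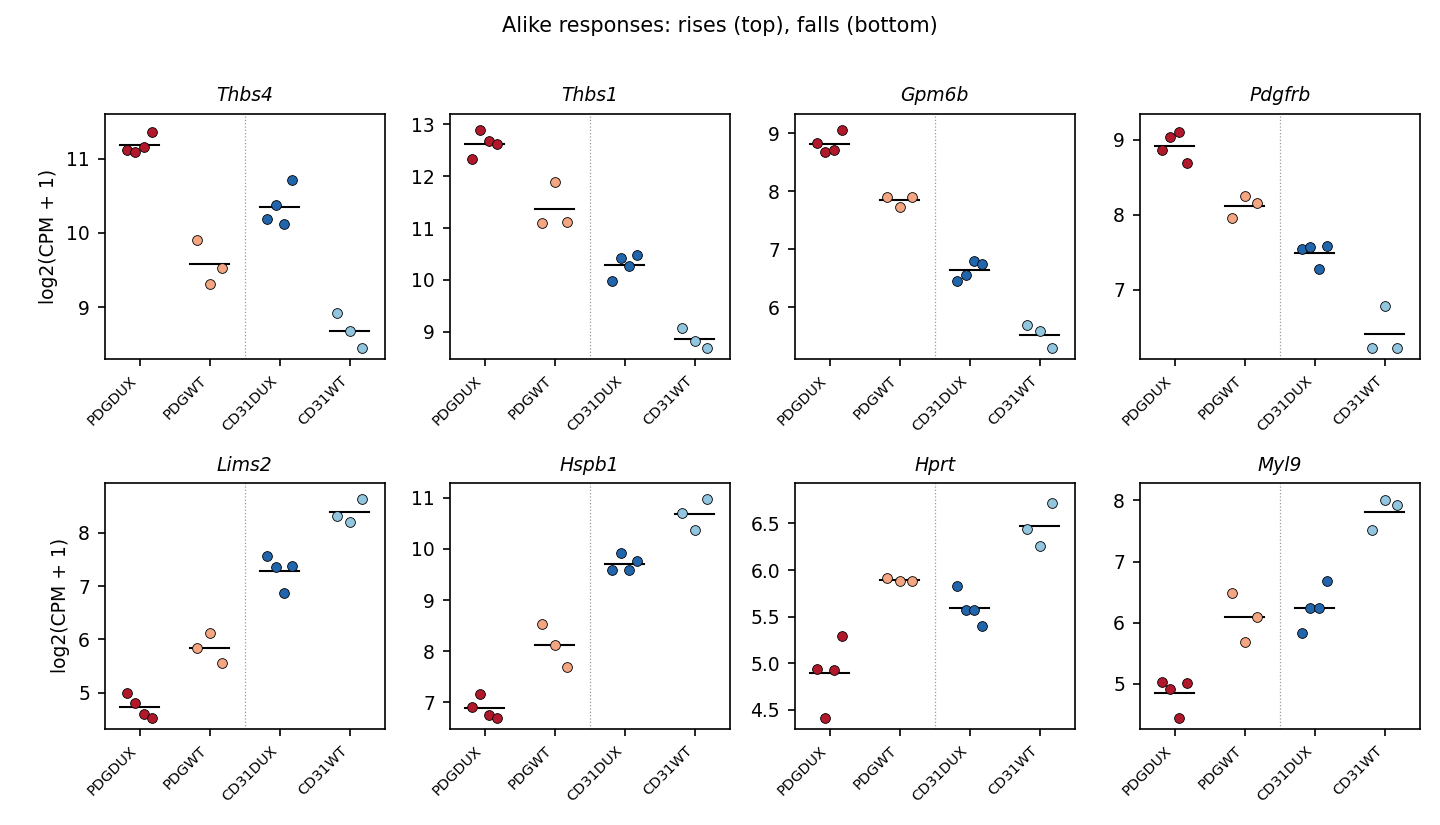
Level of 8 alike genes in each library, as log2(CPM + 1), with PDGDUX, PDGWT, CD31DUX and CD31WT from left to right and a bar at each group's mean. Thbs4, Thbs1, Gpm6b and Pdgfrb are higher in the DUX4 libraries of both cell types, and Lims2, Hspb1, Hprt and Myl9 are lower.

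Among the 10 genes that moved in the same direction by unequal amounts, 8 rose and all of these rose more in endothelial cells. Fbln7, a matrix and cell adhesion protein of the fibulin family, measured 768, 984, 904 and 863 CPM in PDGDUX and 279.5, 240.5 and 324 in PDGWT, with 197, 211, 222 and 216 in CD31DUX and 30.3, 20.7 and 26.2 in CD31WT. Has1, a hyaluronan synthase, measured 6876, 7863, 6937 and 7857 CPM in PDGDUX and 2945, 3959 and 3158 in PDGWT, with 1008, 1367, 1143 and 1478 in CD31DUX and 224, 207 and 156 in CD31WT. The interactions were -1.39 ± 0.20 and -1.54 ± 0.23 (adjusted p = 0.00170 and 0.00187), and both kept their class in 22 of 22 recalculations. For 0 of the 8 rises was the mean in CD31DUX above that of both FAP groups. The remaining pair fell more in FAPs. Plekhb1, a membrane-bound protein with a pleckstrin homology domain, measured 8.02, 11.01, 6.93 and 5.74 CPM in PDGDUX and 73.2, 58.8 and 65.9 in PDGWT, with 34.9, 28.6, 30.97 and 28.1 in CD31DUX and 47.2, 61.3 and 63.9 in CD31WT. Ablim3, an actin-binding LIM protein, measured 2.12, 2.14, 1.52 and 1.37 CPM in PDGDUX and 7.26, 11.4 and 10.6 in PDGWT, with 206, 235, 193 and 197 in CD31DUX and 328, 386 and 358 in CD31WT. Their interactions were -2.15 ± 0.29 and -1.67 ± 0.25 (adjusted p = 0.000798 and 0.00205). The endothelial fall of Plekhb1 was not called without CD31WT 3, and the interaction of Ablim3 was not called by limma voom. The level of Ablim3 in FAPs was far below that in endothelial cells, and the part of endothelial RNA in its FAP fall was not tested.

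Calls on the other lists were few or mixed. Of all genes tested, 1.23% rose and 1.77% fell in FAPs, and 3.72% rose and 1.35% fell in endothelial cells. The interaction was called for 2.25% of them. A single call on a short list is not read here as a result about that list. Of 12 genes of capillary lipid handling, 4 fell in FAPs and 5 in endothelial cells, and the interaction was called for 0 by edgeR, with 4 at an unadjusted p under 0.05, 1 positive and 1 negative by DESeq2 and 0 by limma voom. Fabp4, a fatty acid carrier of capillaries and adipocytes, averaged 48.7 ± 10.2 CPM in PDGDUX and 125 ± 66.5 in PDGWT, with 2323 ± 136 in CD31DUX and 4449 ± 456 in CD31WT (SD, n = 4, 3, 4 and 3). The endothelial fall of Fabp4 was not called without any 1 of the 7 endothelial libraries. Of 12 heat shock genes, 3 fell in FAPs and 4 in endothelial cells, and the interaction was called for 0, with 3 at an unadjusted p under 0.05, 1 by DESeq2 and 0 by limma voom. Of 29 genes of TGFβ and BMP signalling, 1 rose and 1 fell in FAPs, and 8 rose and 2 fell in endothelial cells. The interaction was called for 6 of the 29, all negative, including Bmp2 above. Of 9 PYHIN genes, DNA sensors of the interferon system whose similar sequences make single values uncertain, 3 rose in FAPs and 4 in endothelial cells. The interaction was negative and called for 3 of them. One was Ifi205, which averaged 1582 ± 238 CPM in PDGDUX and 1018 ± 129 in PDGWT, with 245 ± 45.9 in CD31DUX and 44.6 ± 24.6 in CD31WT (SD, n = 4, 3, 4 and 3). It rose by 2.45 ± 0.30 in endothelial cells, and its interaction of -1.82 ± 0.39 was lost without any 1 of PDGWT 9 and 11, CD31DUX 6 and CD31WT 3. Ifi205 is thus a gene of high FAP level, and the part of FAP RNA in its endothelial rise was not tested. Of 9 mouse genes listed as responsive to DUX4, 0 had a called interaction by edgeR or DESeq2 and 1 by limma voom, with 1 at an unadjusted p under 0.05. Of these 9, 0 changed in FAPs and 1, Aadac, fell in endothelial cells.

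**Figure D5:**
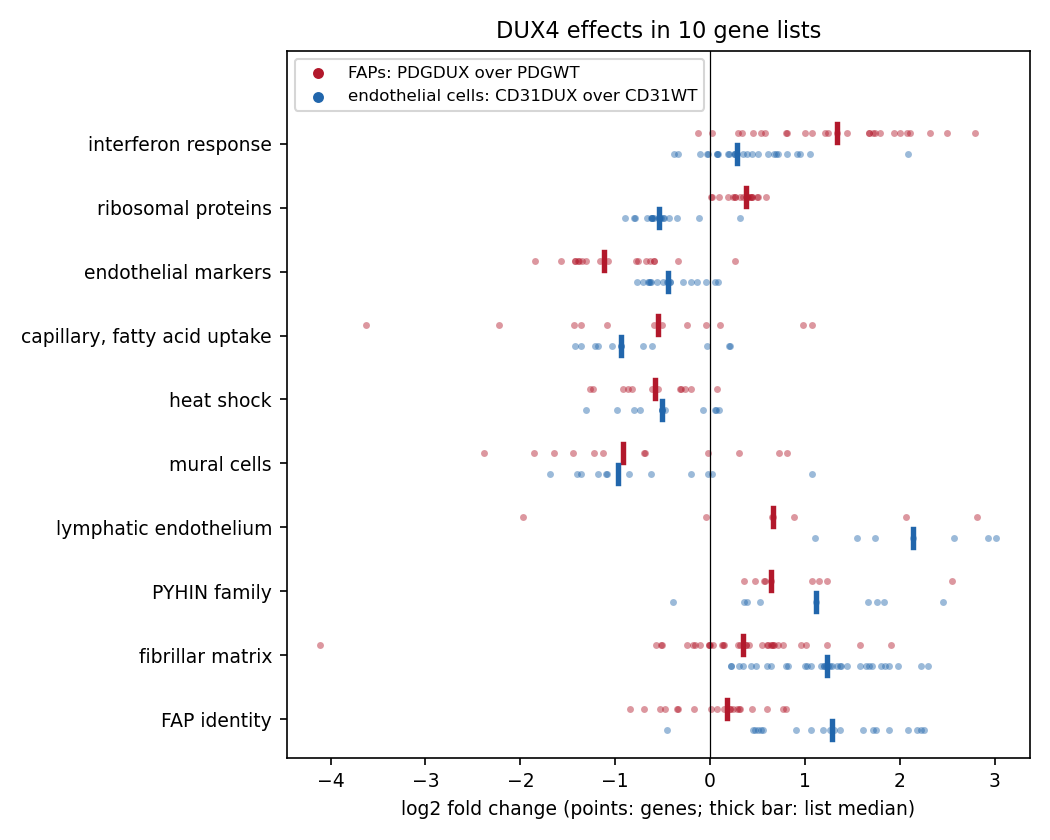
DUX4 minus WT log2 effects in FAPs and in endothelial cells for the members of 10 gene lists, with 1 point per gene and a bar at the median of each list. Interferon genes lie higher in FAPs (median 1.33) than in endothelial cells (0.28), and FAP markers and fibrillar matrix genes lie higher in endothelial cells.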

How the data were processed

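RNA was sequenced from FACS-sorted cells, with paired reads, after low-input cDNA synthesis and Nextera XT library preparation, per the labels' protocols. Expected counts (estimated counts for each Ensembl gene, unscaled for depth) were deposited by the authors, library by library; Salmon 0.6.0, CASAVA 1.8 and mm10 are named per the submitters' processing notes. Which annotation they used, and how transcripts were summed to genes, is not given in the sources used here. Of 43035 genes, 42459 received a symbol from the GENCODE vM21 annotation of GRCm38.

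Expected counts were rounded to whole numbers and fitted with edgeR 4.0.16 in R 4.3.3: 1 mean per group over all 14 libraries, TMM scaling, filterByExpr (minimum count 10), a robust quasi-likelihood test and Benjamini-Hochberg adjustment over the 17008 genes of each contrast. An SE was taken as the log2 effect over the square root of F. CPM are counts scaled to the TMM-adjusted library size, and marker sums add them over a list. In a count-based chi-square comparison no pair of libraries of a group agreed within sampling noise. The fit was tested on simulated counts.

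The classes, the 41 gene lists (652 genes, 1 without an entry) and the rule for naming genes were chosen with earlier results of these data known. The rule ranked genes with at least 5 CPM in a group and an established symbol. It named up to 8 opposite genes of each pattern by p, the 6 one-sided genes of each kind expressed (1 CPM) in both cell types with the largest interaction, up to 3 expressed in 1 only, the 8 alike genes of each direction with the largest smaller effect, up to 4 unequal genes, and up to 2 called members per list. The text prints a part of them, and genes outside the rule (85 of 120 genes with values kept were inside it) were chosen after their values were seen. These are Gch1, Dusp6, Nqo1, Nos3, Gpc3, Pard6g, Ackr2, Slc45a3, Socs1, Irgm2, Iigp1, Ifit1, Ifit2, Lyve1, Mmrn1, Pdgfrb, Pml, Fabp4, Tc2n, Ntrk2, Gm12918, Dcn, and the list members Aadac, Rpl7, Rps3, Prox1 and Ccl21a.

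Alternatives were DESeq2 1.42.0, limma 3.58.1 voom with quality weights, relative log expression factors, no low-count filter, at least 1 CPM in 3 libraries, an adjusted p under 0.01, counts thinned to the lowest total, each cell type alone, genes of at least 5 CPM in both cell types, a narrower interval for alike genes, each library left out and, added after the data were seen, genes no higher in FAPs than in CD31WT.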

Additional observations from a re-analysis of the deposited data

Results flagged for a closer look

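The interaction was called for each of the 88 FAP-sided genes, the 229 endothelial-sided genes, the 10 same-direction genes of unequal size and the opposite genes. The definition of these classes requires that call, and no test compared their counts. The interactions of the opposite genes were -5.72 for Pgf, -12.16 for Slc38a4, -4.11 for Reln, -3.11 for Tc2n, -2.30 for Trf, -2.11 for Sox9, -1.92 for Nupr1, -1.82 for Cp, -1.23 for Arl4a and -1.22 for Ntrk2. They were 1.89 for Trim25, 1.72 for Gm12918 and 1.54 for Dhx9. The value for Slc38a4 is fitted against libraries with no count and is no bound.

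In 258 sets of 4 library values, 25 had 1 library set apart from the others by Dixon's criterion; chance gives about 1 in 20. In PDGDUX 15, Nupr1 was at 154 CPM against 109.6 to 117 in the other PDGDUX libraries, Usp13 at 1.88 against 4.89 to 5.45, Picalm at 34.4 against 14.5 to 17.3, Pml at 61.6 against 45.8 to 47.6, and Tenm2 at 0.0857 against 0. In PDGDUX 13, Grip2 was at 8.13 CPM against 5.13 to 5.53, Max at 22.03 against 31.96 to 33.5, Megf6 at 0.214 against 0, and the fibrillar matrix sum at 63849 against 64277 to 64335. In PDGDUX 14, Ccl21a was at 42.3 CPM against 7.93 to 12.9, Ptprc, the leukocyte marker CD45, at 16.05 against 2.89 to 4.71, and Cttnbp2 at 0.0949 against 0. In PDGDUX 12, Dcn was at 24387 CPM against 26610 to 27054.

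CD31DUX 5 had 18044 genes with a count at equal depth, against 20139 to 20487 in the other CD31DUX libraries. It also stood apart in the endothelial marker sum (8423 CPM against 6988 to 7234), Serping1 (1094 against 1297 to 1325), Col5a1 (211 against 243 to 246), Socs1 (71.6 against 65.1 to 65.6), Irgm2 (188 against 127 to 131) and Mdga1 (3.79 against 1.31 to 1.69). CD31DUX 7 had the highest Lyve1 (875 CPM against 563 to 613) and lymphatic sum (7038 against 4359 to 4631), and the lowest interferon sum (4534 against 5417 to 5485) and Pdgfrb (155 against 187 to 191). In CD31DUX 8 the fibrillar matrix sum was 20966 CPM, against 17572.5 to 18014 in the others. The cause of these deviations was not tested.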

How the results depend on the processing

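The counts moved with the tool and the threshold, and stayed within 1.5 times under other scaling, filters on low values and equal depth, except that endothelial-sided falls were 56, against 35, among genes of at least 5 CPM in both cell types. DESeq2 called 824 interactions, with 1027 FAP calls and 1457 endothelial calls, and 41 opposite, 225 FAP-sided, 421 endothelial-sided, 32 unequal and 87 alike genes; its 824 interactions held all 383 of edgeR. Of the 824, 272 were positive, and the one-sided genes were 101 FAP-sided rises, 124 FAP-sided falls, 321 endothelial-sided rises and 100 endothelial-sided falls. An adjusted p under 0.01 left 134 interactions, 189 FAP calls and 413 endothelial calls, with 3 opposite, 29 FAP-sided, 90 endothelial-sided, 4 unequal and 16 alike genes; 16 of the 134 were positive, and 9 FAP-sided rises, 20 FAP-sided falls, 87 endothelial-sided rises and 3 endothelial-sided falls were left. limma voom gave 22 unequal genes and 23 endothelial-sided falls, and a 1.5-fold interval left 10 alike genes. Among genes no higher in FAPs than in CD31WT, where fewer genes are tested and the choice selects against rises, there were 38 interactions. They held 4 opposite, 24 FAP-sided and 7 endothelial-sided genes. Leaving out 1 library gave 238 (without PDGWT 10) to 541 (without CD31WT 2) interactions, 291 (PDGWT 10) to 555 (PDGDUX 12) FAP calls and 520 (CD31WT 3) to 1091 (CD31WT 2) endothelial calls. It gave 6 (CD31DUX 7) to 27 (CD31WT 2) opposite, 55 (PDGWT 10 or CD31DUX 6) to 123 (PDGDUX 12) FAP-sided, 140 (CD31WT 3) to 364 (CD31WT 2) endothelial-sided, 6 (any PDGWT library) to 18 (CD31WT 1) unequal and 22 (CD31DUX 8) to 41 (CD31WT 1) alike genes. Except where a value above shows it, the cause was not tested. Of 5174 recomputed values for named genes, 4517 kept their side of the threshold, 657 lost the call and 0 changed sign. Library numbers run on across the groups, so they do not show whether FAPs and endothelial cells were sorted from the same mice. No paired analysis was run. The fit treats the 14 libraries as independent, and the SE and p-values of the interaction depend on this. A term for sex was not run, since Y-linked counts were near 0 in all 14 libraries. The lower depth of PDGDUX limits the calls on genes near the floor.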
